A study of Mus musculus with 15 samples.

Results

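The squamous epithelium of the mouse forestomach was followed through 9 genes, chosen by name, of 44788 gene symbols in the tables. Trp63 encodes the transcription factor p63, Krt5, Krt14 and Krt15 encode keratins of the basal layer, Krt4, Krt13 and Krt6a encode keratins of the layers above it, and Dsg3 and Dsc3 encode desmosomal cadherins. All 9 had 1 entry each and a maximal FPKM (a count of sequenced fragments corrected for the length of the gene and the size of the library) of at least 1, and so were among the 16902 symbols that were tested.

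RNA-Seq had been carried out on whole stomachs of C57BL/6 mice at 15 timepoints, with 1 library each. Embryos were sampled daily from E12.5 to E18.5 (embryonic days), pups at D1, D3 and D5 (days after birth), and older mice at W1, W2, W3, W6 and W8 (weeks). No mouse carried a transgene or received a treatment according to the labels, and per the study's methods stomachs up to W2 were taken without regard to sex and older ones from males, so sex and age from W3 on cannot be told apart. For tests, the timepoints were grouped by age into E12.5 to E15.5 (n = 4), E16.5 to E18.5 (n = 3), D1 to W2 (n = 5) and W3 to W8 (n = 3), and also by the study's RNA phases, Ph1 (E12.5 to E17.5), Ph2 (E18.5 to W2) and Ph3 (W3 to W8). The timepoints of a group stood in for replicates, so the spread within a group holds change with age as well as differences between animals.

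The mouse stomach has a forestomach lined by a stratified squamous epithelium and a glandular part lined by a columnar epithelium. In a stratified epithelium, cells of the basal layer sit on the basement membrane, divide, and express p63 and the keratin pair K5 and K14, often with K15. Cells that leave this layer stop dividing and switch to other keratin pairs, K4 with K13 in internal epithelia such as those of the oesophagus and mouth, and K1 with K10 in keratinised epithelia such as the epidermis. Desmosomes join these cells to each other, and their cadherins are anchored to the keratin filaments.

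Each keratin filament needs a type II and a type I keratin, and these are encoded in 2 gene clusters. In GRCm38, the build of the files, the type II genes Krt6a (chromosome 15, 101689928 to 101694305), Krt5 (101707070 to 101712891) and Krt4 (101918535 to 101924735) lay on chromosome 15. The type I genes Krt13 (chromosome 11, 100117596 to 100121495), Krt15 (100131759 to 100135949) and Krt14 (100203162 to 100207510) lay on chromosome 11. Trp63 spanned bases 25683763 to 25892103 of chromosome 16. Each span covers the exons and introns of a protein coding gene.

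The 250 bases before the RefSeq start of Krt5 and of Krt13 are shown side by side, on the strand of transcription (GRCm38.p6, minus strand). Krt5 reached 10% of its maximal FPKM at E14.5 and Krt13 at E15.5, and in the deposited values both peaked at E17.5. The Krt5 sequence is chr15:101712906-101713155 and the Krt13 sequence chr11:100121567-100121816. Capitals mark 4 motifs searched on both strands, which were chosen after the sequences had been seen: ATAAAAG (which resembles a TATA box), GCATGC (a palindrome), CACCC (bound by Krüppel-like factors) and TGANTCA (bound by AP-1).
Krt5: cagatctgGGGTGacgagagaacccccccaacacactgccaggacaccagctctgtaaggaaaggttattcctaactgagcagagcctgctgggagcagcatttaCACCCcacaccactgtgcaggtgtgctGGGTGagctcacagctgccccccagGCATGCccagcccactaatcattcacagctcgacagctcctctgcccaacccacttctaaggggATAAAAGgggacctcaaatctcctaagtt
Krt13: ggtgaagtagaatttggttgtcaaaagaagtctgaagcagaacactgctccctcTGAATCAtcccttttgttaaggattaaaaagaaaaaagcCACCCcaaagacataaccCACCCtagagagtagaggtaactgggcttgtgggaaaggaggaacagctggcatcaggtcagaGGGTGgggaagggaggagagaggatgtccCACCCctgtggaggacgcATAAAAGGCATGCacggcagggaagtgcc

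Both sequences hold ATAAAAG at the same distance, 29 to 23 bases before the start, and 4.84% of 32841 promoter windows of this length hold it on either strand. GCATGC stands 93 to 88 bases before the start in Krt5 and 22 to 17 bases before it in Krt13, directly after the TATA-like box, and is found in 6.70% of the windows. CACCC occurs 3 times in Krt5 and 4 times in Krt13 and is common, in 52.0% of the windows. TGANTCA is present 196 to 190 bases before the start of Krt13, as in 6.75% of the windows, and these letters are not in the Krt5 window. A match of letters is a description of the sequence and not a binding site that was measured.

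The library of W8 stood apart. All 9 genes were lower there than at every timepoint from E15.5 to W6, which was so for 21.0% of the 16902 symbols. The 9 genes summed to 12.6 FPKM at W8 and 519 FPKM at W6, whereas 13 markers of the glandular epithelium summed to 130113 FPKM at W8 and 202342 FPKM at W6, and none of these 13 lay below all of its values from E15.5 to W6. Trp63 (0.0511 FPKM) and Dsg3 (0.0111 FPKM) rested on about 1 fragment each at W8. What set this library apart was not tested, and the calls between D1 to W2 and W3 to W8, and the shifts in ratio to W3 to W8, are also given without it.

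Whole organs were sequenced, so fewer squamous cells and less of these RNAs per cell cannot be told apart. The summed level of the 13 glandular markers was between 644 and 1864 FPKM at E12.5 to E15.5 and between 130113 and 202342 FPKM at W3 to W8. Striated muscle markers (11, chosen as a measure of oesophagus in the dissection) summed to between 8.69 and 18.48 FPKM at E12.5 to E15.5. Their sum was 40.0 to 89.3 FPKM at E16.5 to E18.5, 78.9 to 156 FPKM at D1 to W2 and 39.5 to 141 FPKM at W3 to W8. Only 5 of the 11 reached 1 FPKM at W6 and 4 at W8. Of the 50.6 FPKM at W8, Tnni2 and Ckm held 34.6 and 9.27 FPKM, whereas Acta1 was at 0.315 FPKM. The sum is thus a weak measure of oesophagus at W6 and W8. The part of these muscle markers in the results was not tested. Of 10 hair follicle and epidermis markers, the hair keratin gene Krt27 was listed at 0 at all 15 timepoints. The highest was Flg, the gene of filaggrin, at up to 83.9 FPKM at D1. Next came the keratin gene Krt77, at 3.90, 5.35, 9.44 and 2.99 FPKM at D1, D3, D5 and W1, with its maximum at D5. Krt35 and Krt31 were highest earlier, at E17.5, with 2.79 and 2.16 FPKM. The part of these markers' tissues in the D5 values was not tested. Of 6 liver markers, 4 stood out at D1. Alb, the albumin gene, was at 461 FPKM there against 14.6 FPKM at E18.5 and 25.8 FPKM at D3. Afp, Apoa2 and Serpina1a were at 186, 135 and 19.7 FPKM at D1 against 8.27, 5.40 and 0.527 FPKM at E18.5, and their part in the D1 values was not tested.

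Of the 4 basal genes, Trp63, Krt15 and Krt5 reached 10% of their maximum before the suprabasal keratins did, and Krt14 after them. The place of Krt14 depended on the level used, as given below. Trp63, the regulator on which stratified epithelia depend, stood at 2.89, 7.09, 11.96 and 16.6 FPKM from E12.5 to E15.5, and then at 21.1, 22.1 and 17.54 FPKM from E16.5 to E18.5. After birth it was 12.3, 7.44, 14.1, 2.36 and 3.47 FPKM at D1, D3, D5, W1 and W2, and 2.16, 0.739 and 0.0511 FPKM at W3, W6 and W8. Trp63 thus climbed at every step to E17.5 and had already reached 13.1% of its maximum at E12.5. Its values at E15.5 and E18.5, and those at E16.5 and E17.5, had overlapping confidence bounds, which cover counting error only.

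Krt15, whose protein is a type I keratin of basal cells, was the highest of the 9 genes at E12.5, E13.5 and E14.5, with 23.0, 127 and 343 FPKM. It reached 738, 992 and 1117 FPKM at E15.5, E16.5 and E17.5 and was 625 FPKM at E18.5. Postnatal values were 659, 251, 259, 100.5 and 54.4 FPKM from D1 to W2, and 19.2, 5.11 and 1.87 FPKM at W3, W6 and W8. By W6 Krt15 stood at 0.457% of its maximum, a smaller percent than in any of the other 8 genes.

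Krt5, the type II partner in basal cells, stood at 6.56, 39.0, 136 and 420.2 FPKM from E12.5 to E15.5 and at 703, 964 and 582 FPKM from E16.5 to E18.5. It was then 681, 272, 432, 149.7 and 145 FPKM from D1 to W2, and 84.6, 27.3 and 1.26 FPKM from W3 to W8. The steepest rise was the earliest, a 5.95-fold higher level at E13.5 than at E12.5, and Krt15 was 5.52-fold higher over the same step.

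Krt14, the type I partner usually named together with Krt5, followed another course. It measured 2.85, 2.14, 3.13 and 17.8 FPKM from E12.5 to E15.5, with overlapping bounds at the first 3 timepoints, and 47.3, 79.3 and 118 FPKM from E16.5 to E18.5. Its maximum came after birth, at D1, with 234 FPKM, and it was 88.6, 161, 51.3 and 105 FPKM at D3, D5, W1 and W2 and 74.1, 40.8 and 0.366 FPKM at W3, W6 and W8. Krt14 therefore peaked later than each of the other 8 genes (with median-ratio scaling of the libraries, Krt4 and Krt13 peaked at D1 too), and at W6 it still held 17.4% of its maximum. Its transcript is similar to those of Krt16 and Krt17, so fragments may have been shared between them and its level is uncertain. The authors' bounds were wider for Krt14, ±4.60% at D1, than for Krt5, ±1.25% at a level that was higher.

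**Figure D1:**
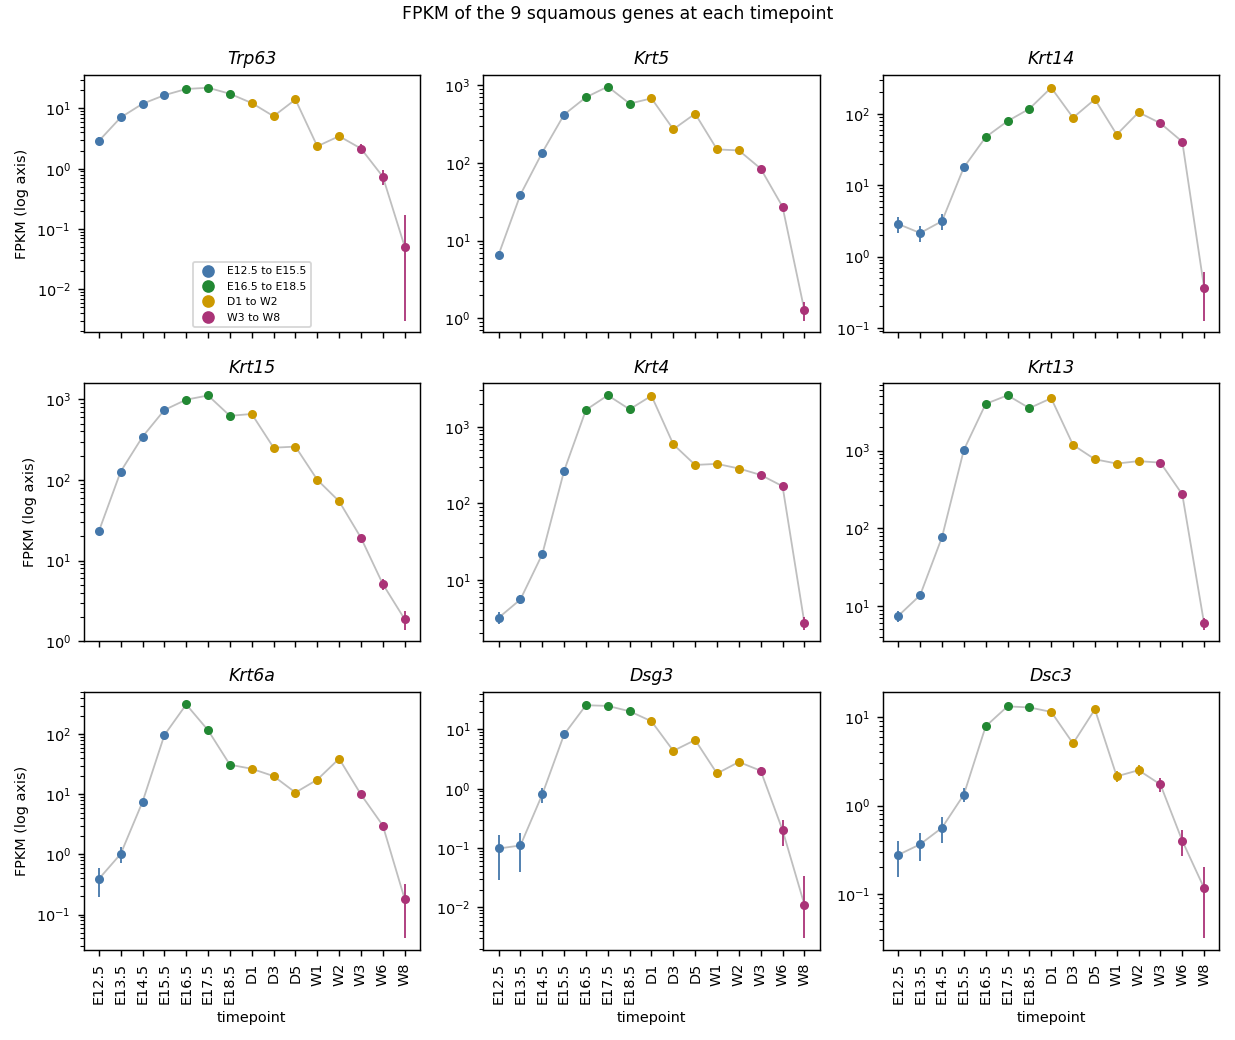
FPKM of each gene (log axis) at the 15 timepoints. Points are libraries coloured by age window, bars are the authors' confidence bounds (a lower bound of 0 runs to the foot of the bar). Krt15, Krt5 and Trp63 climb from E12.5, Krt4, Krt13 and Krt6a climb between E14.5 and E16.5, Krt14 peaks at D1, and all 9 genes are low at W8.

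The suprabasal keratins reached 10% of their maximum later than Trp63, Krt15 and Krt5, but, at this level, earlier than Krt14. At E12.5 they were already measured, Krt13 at a level above those of Krt5, Krt14 and Trp63. Krt13, the type I keratin of internal stratified epithelia, was 7.47, 13.8, 76.8 and 1016 FPKM from E12.5 to E15.5 and 3976, 5133 and 3510.1 FPKM from E16.5 to E18.5. It stood at 4703 FPKM at D1, at 1179.6, 771, 679.9 and 730.4 FPKM from D3 to W2, and at 699, 273 and 5.96 FPKM from W3 to W8. The step from E14.5 to E15.5 was 13.2-fold, and from D1 to D3 the level was 3.99-fold lower.

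Krt4, its type II partner, measured 3.19, 5.54, 21.6 and 267 FPKM from E12.5 to E15.5 and 1671, 2595 and 1701 FPKM from E16.5 to E18.5. The level was 2559.6 FPKM at D1, then 592, 319, 329 and 286 FPKM from D3 to W2, and 236, 168 and 2.74 FPKM from W3 to W8. Krt4 and Krt13 moved together, with a Pearson r of 0.994 over the 15 timepoints on the log2(FPKM + 1) scale and of 0.993 without W8, the highest r among the 36 pairs of the 9 genes. The ratio of Krt13 to Krt4 stayed between 1.62 and 3.81 at all 15 timepoints. Trp63 and Krt14 had the lowest r of the 36 pairs, 0.395, or 0.141 without W8.

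Krt6a, which encodes a type II keratin known from hair follicles, tongue and wounded epidermis, was transient. It measured 0.391, 1.02, 7.53 and 97.2 FPKM from E12.5 to E15.5, peaked at E16.5 with 315 FPKM, and was down to 117 and 31.2 FPKM at E17.5 and E18.5. From D1 to W2 the values were 26.7, 20.2, 10.8, 17.6 and 39.4 FPKM, and from W3 to W8 they were 9.98, 3.04 and 0.182 FPKM. While Krt4 and Krt13 were near their maximum at D1, at 98.6% and 91.6% of it, Krt6a stood at 8.49%. Its near-identical neighbour Krt6b had at most 0.133 of the Krt6a level from E13.5 to D5, but 0.863 at W2 and 2.12 at W3, so the split of fragments between the 2 genes makes the later Krt6a values uncertain.

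The desmosomal cadherin genes Dsc3 (19960930 to 20002412) and Dsg3 (20510304 to 20541310) lay on chromosome 18. Dsg3, the antigen of pemphigus vulgaris, stood at 0.0984, 0.111, 0.801 and 8.24 FPKM from E12.5 to E15.5 and at 25.7, 25.0 and 20.3 FPKM from E16.5 to E18.5. It was 13.7, 4.37, 6.65, 1.81 and 2.83 FPKM from D1 to W2, and 2.02, 0.201 and 0.0111 FPKM from W3 to W8. Dsc3, its desmocollin counterpart, was 0.277, 0.365, 0.561 and 1.33 FPKM from E12.5 to E15.5 and 7.87, 13.2 and 12.9 FPKM from E16.5 to E18.5. Later values were 11.5, 5.04, 12.2, 2.14 and 2.51 FPKM from D1 to W2 and 1.73, 0.401 and 0.117 FPKM from W3 to W8. Dsg3 led, at 32.1% of its maximum at E15.5 against 10.05% for Dsc3, and Dsc3 was still at 92.5% of its maximum at D5, where Dsg3 stood at 25.9%.

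Onset was defined as the first timepoint at which a gene, and also the next timepoint, stood at 10% or more of that gene's maximum. By this measure Trp63 began at E12.5, Krt15 at E13.5 and Krt5 at E14.5. Krt4, Krt13, Krt6a, Dsg3 and Dsc3 all began at E15.5, with Krt4 (10.3%) and Dsc3 (10.05%) just past the level. Krt14 was last, at E16.5, but its place after the suprabasal keratins depended on the level. At 5% of the maximum Krt14 began at E15.5, as did Krt4, Krt13 and Krt6a. At 20% it began at E16.5, as did Krt4 and Krt13, and after Krt6a at E15.5. Of the 12 pairs of a basal gene (Trp63, Krt5, Krt14 or Krt15) with a suprabasal keratin (Krt4, Krt13 or Krt6a), the basal gene began at an earlier timepoint in 9, and the other 3 were those of Krt14. With 1 library per timepoint the order has no replicate error, and it depended on the level used. At 5% or 20% of the maximum 9 and 8 pairs had the basal gene first. At 50%, which Krt6a did not reach at 2 timepoints in a row, the count was 4. There Krt5 tied with Krt4 and Krt13 at E16.5, and Krt14 came after them. At 1 FPKM for every gene the count was also 4, the pairs with Krt6a, and all other pairs tied at E12.5. Without E14.5 the count was 6, and without W8 it was 9. With median-ratio scaling Krt4 and Dsc3 began at E16.5, as Krt14 did, and the count was again 9.

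**Figure D2:**
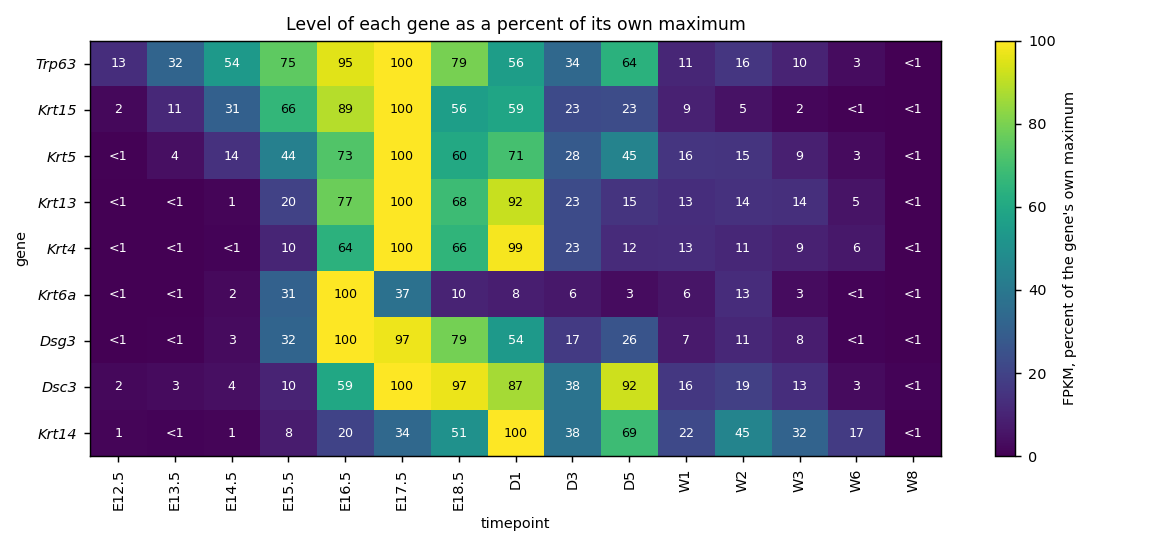
Level of each gene at the 15 timepoints as a percent of that gene's own maximal FPKM (colour and printed values), with genes in order of onset. At E14.5 Trp63, Krt15 and Krt5 stand at 54, 31 and 14 percent and the other 6 genes at 4 percent or less, and Krt6a is at 10 percent by E18.5.

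Age windows were compared with limma on log2(FPKM + 1), and p-values were adjusted over all 16902 symbols by the Benjamini-Hochberg method with a threshold of 0.01. Between E12.5 to E15.5 and E16.5 to E18.5, Krt4, Krt13, Dsg3 and Dsc3 rose, 4 of 9 genes, where 8.27% of all symbols were called higher and 10.6% lower. The differences on this scale, in log2 units ± SE, were 6.59 ± 1.46 for Krt4 (adjusted p = 0.00453), 6.21 ± 1.58 for Krt13 (adjusted p = 0.00869), 3.53 ± 0.69 for Dsg3 (adjusted p = 0.00239) and 2.93 ± 0.48 for Dsc3 (adjusted p = 0.00101). For these 4 genes the windows did not overlap. Mean levels were 74.3 ± 129 and 1989 ± 525 FPKM (SD, n = 4 and 3) for Krt4, and 278 ± 493 and 4206 ± 835 FPKM for Krt13.

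The other 5 genes had higher means in the later window but did not pass the threshold. Krt14 differed by 3.80 ± 1.07 (adjusted p = 0.0143), Krt6a by 3.93 ± 1.22 (adjusted p = 0.0226), Krt5 by 3.51 ± 1.25 (adjusted p = 0.0396), Krt15 by 2.40 ± 1.04 (adjusted p = 0.0811) and Trp63 by 1.20 ± 0.57 (adjusted p = 0.11) by limma. The windows of Krt14, Krt5 and Trp63 did not overlap either, whereas those of Krt6a and Krt15 did, since their levels at E15.5, 97.2 and 738 FPKM, exceeded those at E18.5, 31.2 and 625 FPKM. When W8, W3 or E15.5 was left out, Krt14 also passed (adjusted p = 0.00118, 0.00867 and 0.00808 by limma), and Krt6a passed without E15.5 (adjusted p = 0.00118 by limma). When any 1 timepoint from E12.5 to E14.5 or from E16.5 to E18.5 was left out, neither Krt4 nor Krt13 did, and Krt13 also lost its call without D3, D5, W1, W2 or W6. Dsg3 lost its call without E17.5 or without E18.5, and Dsc3 kept its call whichever timepoint was left out. With E15.5 counted in the later window the number called was again 4, but Krt6a passed (adjusted p = 0.00219 by limma) and Dsc3 did not (adjusted p = 0.012).

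Between E16.5 to E18.5 and D1 to W2, none of the 9 genes passed the threshold with limma, where 2.69% of all symbols were called higher and 7.83% lower. Trp63, Krt15 and Dsg3 had an unadjusted p under 0.05, with differences of -1.47 ± 0.55, -2.23 ± 0.99 and -2.08 ± 0.66 log2 units. The mean of Krt14 was higher after birth, 128 ± 71.1 FPKM (SD, n = 5) against 81.6 ± 35.5 FPKM (n = 3), by 0.56 ± 1.02 log2 units, and those of the other 8 genes were lower. For Krt13 and Krt4, D1 was close to the late fetal libraries, at 4703 and 2559.6 FPKM, and lay far above D3 to W2. Krt5, Krt15 and Dsc3 were also within the late fetal range at D1. Trp63 (12.3 FPKM), Dsg3 (13.7 FPKM) and Krt6a (26.7 FPKM) were below that range at D1, and Krt14 (234 FPKM) was above it.

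From D1 to W2 to W3 to W8, Krt15 fell by 4.74 ± 0.99 log2 units (adjusted p = 0.00122), Trp63 fell by 2.08 ± 0.55 (adjusted p = 0.00491) and Dsc3 fell by 1.99 ± 0.46 (adjusted p = 0.00241) by limma. These were 3 of 9 genes, where 41.4% of all symbols were called lower and 4.05% higher. With the libraries scaled by their median ratio, Krt15 and Dsc3 were called lower, 2 of 9 genes, where 13.1% of all symbols were, so the share of the 9 genes lay below that of all symbols in the deposited values and above it after scaling. The other 6 differences were between -1.91 (Dsg3) and -4.00 (Krt5), with adjusted p from 0.0104 (Krt5) to 0.0709 (Krt6a). Without W8, only Krt15 kept its call (-4.09 ± 1.13, adjusted p = 0.00865), 1 of 9 genes where 34.5% of all symbols were called lower, and the differences of Krt4 and Krt13 were -1.43 ± 1.26 and -1.41 ± 1.39 (adjusted p = 0.346 and 0.40). Without W6, too, Trp63 and Dsc3 lost their calls, and Trp63 lost its call without D1, D3 or D5. Over all symbols the median difference of the 3 comparisons was -0.11, -0.16 and -0.42, and scaling each library by the median ratio brought it to -0.01, 0.00 and -0.02. With that scaling 1600 symbols were called higher and 1194 lower in the first comparison against 1397 and 1799 before, 692 and 512 against 455 and 1324 in the second, and 3046 and 2206 against 685 and 6998 in the third. All 27 of the differences of the 9 genes kept their sign with it.

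**Figure D3:**
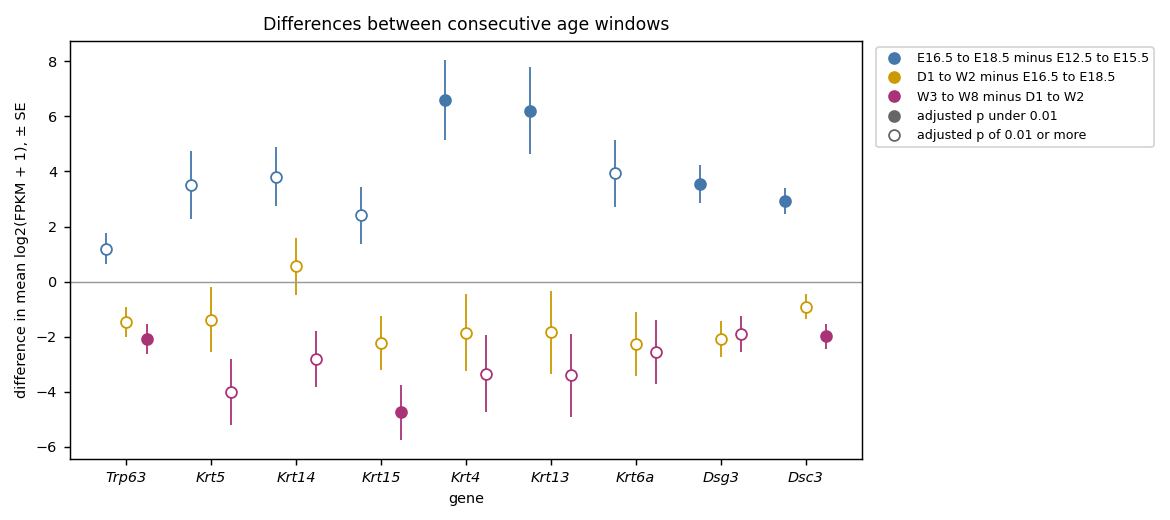
Difference in mean log2(FPKM + 1) between consecutive age windows for each gene, with SE from limma. Filled points passed the threshold: Krt4, Krt13, Dsg3 and Dsc3 in the first comparison, none in the second, and Trp63, Krt15 and Dsc3 in the third.

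Across the study's 3 RNA phases, the limma F test called 2 of the 9 genes, Krt15 (adjusted p = 0.00098) and Trp63 (adjusted p = 0.00235), where 70.8% of all symbols were called. The other 7 had an adjusted p between 0.0180 (Krt14) and 0.206 (Krt6a). Ph1 runs from E12.5 to E17.5 and so holds both the lowest and the highest fetal values of Krt13, 7.47 and 5133 FPKM. The phases were drawn by the study from the same libraries, so the test is not independent of them. Across the 4 age windows the same test called 8 genes, all but Krt6a (adjusted p = 0.0134), where 76.3% of all symbols were called, and the count for the phases dropped to 1 without W8.

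Ratios within a library do not depend on how libraries are scaled. The summed suprabasal pair over the basal pair, Krt4 + Krt13 over Krt5 + Krt14, was 1.13, 0.470, 0.706 and 2.93 from E12.5 to E15.5, then 7.53, 7.40 and 7.44 from E16.5 to E18.5. It was 7.94 at D1, dipped through 4.91 at D3 to 1.84 at D5, was 5.02 and 4.06 at W1 and W2, and stood at 5.89, 6.47 and 5.34 at W3, W6 and W8. At W8, then, where each of the 4 genes was low, their ratio was within the range of D1 to W2. The median of the log2 ratio at W3 to W8 was 0.34 lower than at E16.5 to E18.5, with an SD of 0.14 over the 3 later timepoints, and between 0.27 and 0.41 lower when any 1 timepoint was left out. No test was made of this ratio.

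The size of that shift hung on the basal keratin taken as the base. Krt13 over Krt5 was 0.55 log2 units higher at W3 to W8 than at E16.5 to E18.5, Krt4 over Krt5 was 0.05 higher, Krt13 over Krt15 was 2.99 higher, and Krt13 over Krt14 differed by -2.78. Without W8 these shifts were 0.684, 0.622, 3.26 and -3.03 in the same order. When any 1 timepoint was left out they lay between 0.142 and 0.684, -0.13 and 0.622, 1.23 and 3.26, and -3.03 and -2.22, so that of Krt4 over Krt5 had no fixed direction, and the lowest values of the first 3 were those without W6. The basal keratins were thus not in step with one another.

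The ratio of Krt15 to Krt14, which was singled out after its values had been seen, was 8.07, 59.5, 109.6 and 41.5 from E12.5 to E15.5, 21.0, 14.1 and 5.29 from E16.5 to E18.5, and 2.82, 2.84, 1.61, 1.96 and 0.516 from D1 to W2. By W3 it had reached 0.259 and by W6 0.125, and the order of these type I keratins turned between W1 and W2. W8, at 5.12 and with about 9 fragments behind Krt14, was the exception. Krt15 over Krt5 went from 3.51 at E12.5 to 0.187 at W6 and was 1.48 at W8. Krt14 over Krt5 was 0.435 and 0.0548 at E12.5 and E13.5, was lowest at E14.5 (0.0230), was highest at W6 (1.49) and stood at 0.290 at W8. Since Krt14 shares sequence with Krt16 and Krt17, the ratios that hold it carry that uncertainty, and the ratio of Krt15 to Krt5 does not use it.

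**Figure D4:**
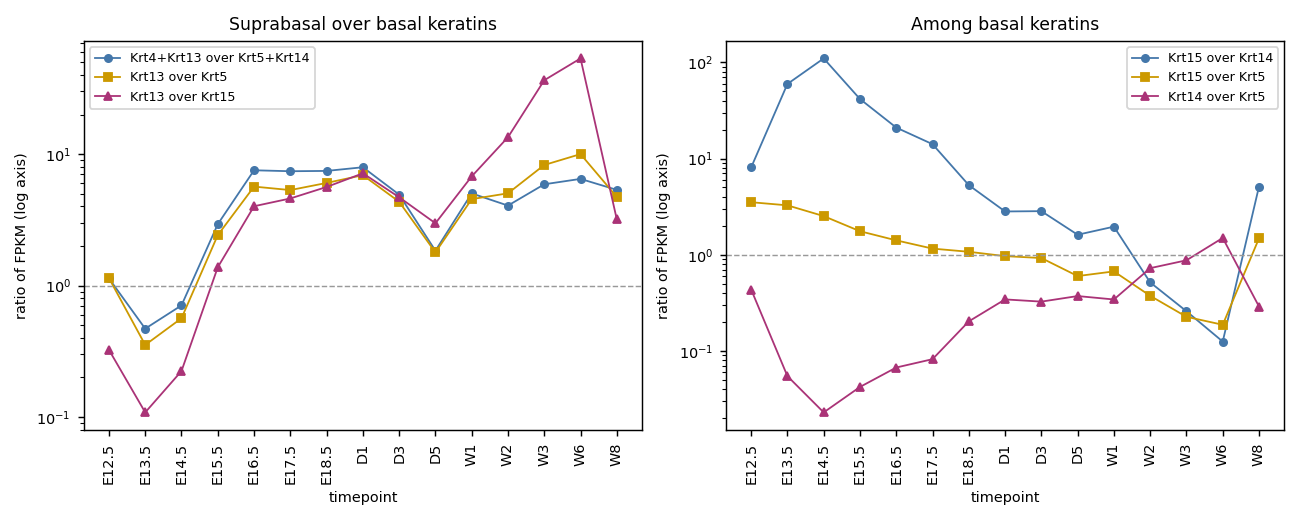
Ratios of FPKM within each library at the 15 timepoints (log axis), with a dashed line at 1. Left, Krt4 + Krt13 over Krt5 + Krt14 crosses 1 between E14.5 and E15.5 and is flat near 7.4 to 7.9 from E16.5 to D1. Right, Krt15 over Krt14 goes from 109.6 at E14.5 to 0.125 at W6.

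Krt5 climbed more steeply than Trp63. The ratio of Krt5 to Trp63 was 2.27 at E12.5, 25.3 at E15.5 and 43.7 at E17.5, and then lay between 24.7 and 63.5 at the 9 timepoints after E17.5. The lowest of these was that of W8, where Trp63 rested on about 1 fragment, and the next was 30.6 at D5. Krt5 over Krt8, a keratin of columnar epithelium, was between 0.585 and 1.09 at E16.5 to E18.5, between 0.101 and 0.819 at D1 to W2, and 0.0428, 0.0134 and 0.000855 at W3, W6 and W8.

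Other genes of stratified epithelia were counted in 5 lists. Of 16 squamous differentiation genes, 12 rose between E12.5 to E15.5 and E16.5 to E18.5 and none fell, where 8.27% of all symbols were called higher and 10.6% lower, with a median difference of 4.54 against -0.11 for all symbols. Krtdap, encoding a secreted peptide of differentiating keratinocytes, went from 77.8 FPKM at E15.5 to 1092 FPKM at E16.5 and 5922 FPKM at D1 (7.12 log2 units between the windows). Sprr3, whose product is a precursor of the cornified envelope, went from 26.8 to 912 FPKM over the same first step (7.47 log2 units). Lor, encoding loricrin, the main protein of that envelope in epidermis, was slower, at 15.6, 53.3 and 576 FPKM at E15.5, E16.5 and E17.5 and at 4049 FPKM at D1, and did not pass the threshold, though it did without W8 (adjusted p = 0.00268 by limma). Only 1 of the 16 genes, Sprr1b, fell between E16.5 to E18.5 and D1 to W2 (7.83% of all symbols were called lower), and Ivl (involucrin) and Ppl (periplakin) fell from there to W3 to W8, 2 of 16 where 41.4% of all symbols were called lower. The latter 2 calls were lost with median-ratio scaling and also without W8 (adjusted p = 0.0446 and 0.035 by limma).

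Of 11 desmosome genes other than Dsg3 and Dsc3 that were tested, 8 rose in the first comparison (median difference 1.88), and none fell, where 8.27% of all symbols were called higher. Perp, a p63 target that is needed for desmosomes, stood at 12.3 FPKM at E12.5, 321 FPKM at E16.5 and 518 FPKM at D1 (3.02 log2 units between the windows). Jup and Dsp, which encode plakoglobin and desmoplakin and which columnar cells also use, rose by 1.14 and 1.88 log2 units. They also stayed high where the 9 genes were low: at W8 Jup was 109.9 FPKM and Dsp 49.2 FPKM, against 134 and 45.5 FPKM at W6. In the second comparison limma called none (2 had an unadjusted p under 0.05), and in the third 1 of 11 fell, Dsg1a, where 41.4% of all symbols did. Dsg1a was also called without W8 (adjusted p = 0.00767 by limma).

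Of 12 basal layer and hemidesmosome genes, 4 rose in the first comparison (among them Itgb4, Lamb3 and Fermt1, median of the 12 genes 0.85), where 8.27% of all symbols were called higher. With median-ratio scaling 6 rose, where 9.47% of all symbols did. In the second comparison 1 rose (Lamb3, by 1.34 log2 units), where 2.69% of all symbols were called higher. In the third 2 fell (Col17a1 by 3.00 and Cdh3 by 1.84 log2 units), where 41.4% of all symbols were called lower. Without W8 Cdh3 kept its call (adjusted p = 0.00367 by limma) and Col17a1 did not (adjusted p = 0.0104). Cd151 and Itga6, a tetraspanin and an integrin of hemidesmosomes, were at 43.0 and 14.1 FPKM at E12.5 and at 57.2 and 30.0 FPKM at W8. The W8 value of Cd151 was below all of its values from E15.5 to W6, the next being 58.5 FPKM at E18.5, and that of Itga6 was not. Lamb3, a chain of the laminin that hemidesmosomes bind, was 2.47 FPKM at E12.5 and 49.3 FPKM at D3. In the third comparison, median-ratio scaling gave 2 calls upward and 2 downward among the 12 genes, against 0 and 2 without it. With that scaling 18% of all symbols were called higher and 13.1% lower.

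Of 15 transcription factors of squamous epithelia, 7 rose in the first comparison (median 1.399), 2 fell in the second (Sox2 and Pax9), and 6 fell in the third (among them Sox2, Klf5, Pitx1, Grhl3 and Tfap2a). Over all symbols 8.27% were called higher in the first comparison, 7.83% lower in the second and 41.4% lower in the third, so the share of these factors in the third was near that of all symbols. Without W8, 4 fell in the third, where 34.5% of all symbols did, and Grhl3 (adjusted p = 0.0289 by limma) and Tfap2a (adjusted p = 0.0137) were not called. Pitx1, the highest of them, was already at 169.7 FPKM at E12.5, reached 312 FPKM at E17.5, and was 17.1 FPKM at W8. Elf3 and Klf4, which glandular epithelium also expresses, were 58.7 and 33.2 FPKM at E15.5, 101 and 64.3 FPKM at E16.5, and 195 and 119 FPKM at W8. With median-ratio scaling the third comparison gave 2 higher and 4 lower, where 18% of all symbols were called higher and 13.1% lower. The second gave none in either direction, where 4.09% of all symbols were called higher and 3.03% lower.

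Among 10 other keratins of stratified epithelia that were tested, 4 rose in the first comparison (Krt23, Krt78, Krt79 and Krt80, median of the 10 genes 2.67), where 8.27% of all symbols were called higher. In the second limma called none (3 had an unadjusted p under 0.05). With median-ratio scaling 1 was called higher there, where 4.09% of all symbols were. In the third comparison 1, Krt17, fell, where 41.4% of all symbols did. Without W8 Krt17 was called again (adjusted p = 0.00718 by limma), and Krt1 and Krt10 were called higher in the first comparison (adjusted p = 0.00759 and 0.00121) and in the second (adjusted p = 0.00438 and 0.0055). Krt1 and Krt10, the suprabasal pair of keratinised epithelia, trailed Krt4 and Krt13. Krt1 was 8.04 FPKM at E16.5, 166 FPKM at E18.5, 593 FPKM at D1 and 1000.5 FPKM at D5, and Krt10 was 28.1, 226, 626 and 988 FPKM at the same timepoints. By the 10% rule both began at E18.5, after Krt4 and Krt13 at E15.5, and both peaked at D5. Relative to Krt4 + Krt13, Krt1 + Krt10 stood at 0.00640 at E16.5, 0.168 at D1, 1.82 at D5, 0.524 at W1, 1.07, 1.38 and 1.08 at W2, W3 and W6, and 0.584 at W8. This ratio, too, was chosen after its values had been seen.

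**Figure D5:**
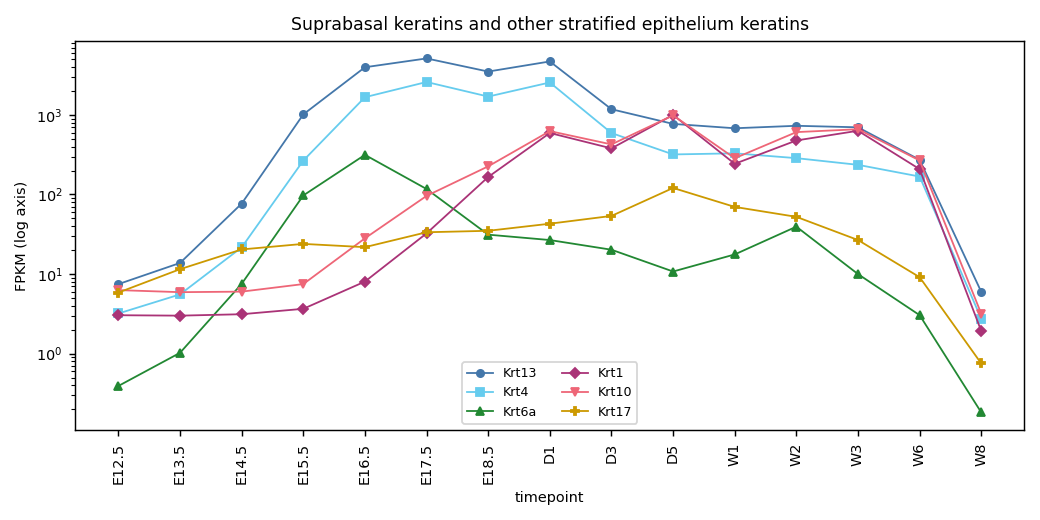
FPKM (log axis) of Krt13, Krt4, Krt6a, Krt1, Krt10 and Krt17 at the 15 timepoints. Krt13 and Krt4 are high from E16.5 to D1 and lower from D3, and Krt6a peaks at E16.5. Krt1 and Krt10 reach their maximum at D5, above Krt4 and Krt13, are below both at W1, and lie between Krt4 and Krt13 at W2 to W6.

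Genes of like pattern were ranked among 14619 symbols with a mean of at least 1 FPKM, by Pearson r over the 15 timepoints on the log2(FPKM + 1) scale, as a description and with no test. The 15 points share the growth of the glandular part and the W8 library. For the mean profile of the 4 basal genes, the first 10 included Tgm1, Col17a1, Elf5, Vat1, Trim29, Hspb8, Hebp2, Rab38 and Sox15, with r from 0.976 to 0.961. Tgm1, the first of them, was also in the list of squamous differentiation genes, so the ranking did not single out basal layer genes. Without W8 its r was 0.963, at rank 10. Col17a1, encoding a hemidesmosomal collagen, kept an r of 0.975 without W8, and Sox15, a transcription factor gene, became the first of all at 0.991. For the mean profile of Krt4, Krt13 and Krt6a, they included Pkp1, Cyp2f2, Cd9, Mall, 4833423E24Rik, S100a16, Wnt4, Hopx and Hspb1, with r from 0.966 to 0.954. Pkp1, the gene of a desmosomal plakophilin, led with a maximum of 72.1 FPKM at E17.5, and without W8 its r was 0.955.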

How the data were processed

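Total RNA of whole stomachs was sequenced at 15 timepoints. The authors deposited 1 table per timepoint with an FPKM value and its lower and upper confidence bounds for each of 46966 gene entries, all with status OK. Per the paper's methods, reads were mapped with HISAT2 and quantified with StringTie, and the methods name liver as the source of the RNA. The labels name stomach, and the submitters' processing notes list Bowtie 0.12.2, FastQC and GRCm38.p2, while the layout of the tables is that of Cufflinks. Where a symbol had several entries (1565 symbols), these were added up. Starts in the files count from 0 and are given counted from 1.

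Symbols that reached 1 FPKM at any timepoint were tested on log2(FPKM + 1) with limma 3.58.1 in R 4.3.3, either across the 3 RNA phases or as contrasts between 4 age windows, with Benjamini-Hochberg adjustment over all 16902 symbols and a threshold of 0.01. The code was tested on simulated data. Groups came from the age labels. The number of reads per library is not stated, and relative depth, read from the bounds, was between 0.723 and 1.18 of that at E12.5. Fragments behind a value were calculated from its bounds as if these were Poisson. The sum of FPKM per library lay between 745538 and 1344957. Bounds and fragments cover counting error only, not differences between animals.

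The 9 genes, the gene lists and the markers were chosen with earlier results of these data known. Named beside the 9 were the 2 or 3 genes of each list with the highest maximal FPKM, the genes of the lists that were called where they were few, and the 10 symbols of most similar pattern, and some of these genes are not reported here. Promoter sequences were taken from RefSeq (GRCm38.p6), which matched 3 of the 9 genes, and that of Krt14 began inside the gene and was not used. Alternatives were other scalings, pseudocounts, filters, groupings and onset levels, and leaving out each timepoint. Leaving out W3 to W8, and the gene lists and single-keratin ratios without W8, were added after the data had been seen. Python 3.11.15 was used for the remaining steps.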

Additional observations from a re-analysis of the deposited data

Results flagged for a closer look

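At E15.5, 5 genes stood far above the other 3 timepoints of the window from E12.5 to E15.5 by Dixon's criterion: Krt13 at 1016 FPKM against 76.8 FPKM for the next highest, Krt4 at 267 against 21.6 FPKM, Krt6a at 97.2 against 7.53 FPKM, Krt14 at 17.8 against 3.13 FPKM, and Dsg3 at 8.24 against 0.801 FPKM. In the window from D1 to W2, Krt4 and Krt13 stood apart at D1, at 2559.6 FPKM against 592 FPKM and at 4703 FPKM against 1179.6 FPKM. These are 7 flags in 18 windows examined. Chance gives about 1 in 20 for independent values without order. Here the values of a window are ordered by age, and genes such as Krt4 and Krt13 moved together. The 7 flags therefore cannot be set against that rate. Neighbouring ages held values on the same side: at E16.5 Krt13 was 3976 FPKM and Krt4 was 1671 FPKM, and at E18.5 they were 3510.1 and 1701 FPKM.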

How the results depend on the processing

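For the F test across the phases, which called 2 of the 9 genes, the count was 1 with median-ratio scaling and with quantile normalization, 4 with E17.5 in Ph2 as in the protein phases, 0 on untransformed FPKM, 8 across the 4 age windows, and 1 to 4 when 1 timepoint was left out (4 without E17.5, 1 without W6 or W8). The rise from E12.5 to E15.5 to E16.5 to E18.5, called for 4 genes, was called for 2 with a pseudocount of 0.1, for 2 with every symbol above 0 tested, for 1 to 6 with 1 timepoint left out (6 without E15.5, 1 without E17.5 or E18.5), and for 5 without W3 to W8. The count of 0 between E16.5 to E18.5 and D1 to W2 was 0 or 1 with 1 timepoint left out (1, Dsg3, without E15.5). From D1 to W2 to W3 to W8 the 3 calls became 1 with quantile normalization and 1 to 5 with 1 timepoint left out (5 without E15.5 or W3, 1 without W6 or W8). Basal genes began first in 9 of 12 pairs and in 6 to 9 with 1 timepoint left out. The count was 4 at 50% of the maximum, where the pairs with Krt6a could not be scored. It was 4 at 1 FPKM, where all other pairs tied. The shift of the suprabasal to basal ratio, -0.34, was 0.55 as Krt13 over Krt5, 0.051 as Krt4 over Krt5, 2.99 as Krt13 over Krt15 and -2.78 as Krt13 over Krt14, and lay between -0.41 and -0.27 with 1 timepoint left out. Leaving out timepoints leaves fewer samples to a test. The cause of the other shifts was not tested. No difference of a single gene changed sign in any alternative. Counted once per gene, comparison and alternative, 35 cases lost a call, 14 gained one and 608 were unchanged in this respect. No paired analysis was possible because each timepoint has 1 library and the replicate numbers only name timepoints within a window. Depth limits Trp63 and Dsg3 at W8, with about 1 fragment each.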

Other observations

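Of the keratins known from wounded epidermis, Krt6b and Krt16 had their maximum at W2, Krt6a had a second high there, and Krt17 did not. Krt6b was 6.07, 34.0 and 21.1 FPKM at W1, W2 and W3, against at most 2.43 FPKM at E12.5 to E15.5 and 14.2 FPKM at E16.5. Krt16 was 4.57, 23.4 and 8.42 FPKM at W1, W2 and W3 and no more than 2.96 FPKM at any earlier timepoint up to D5. Krt6a stood at 39.4 FPKM at W2, its highest value after E17.5. Krt17 was highest earlier, at 121 FPKM at D5, against 53.7 FPKM at D3, 69.8 FPKM at W1 and 52.3 FPKM at W2. The 11 striated muscle markers also had their highest sum of the 15 timepoints at W2, 156 FPKM against 78.9 FPKM at W1 and 141 FPKM at W3. Acta1 (8.34, 34.9 and 13.6 FPKM at W1, W2 and W3), Mylpf, Myh1, Myh4 and Myh8 had their maximum at W2. Tnnt3 (8.28, 18.8 and 46.5 FPKM), Tnni2 and Myh2 had theirs at W3, Ckm and Myh3 at D5, and Actn3 at E18.5. The part of these markers in the keratin values was not tested. Each value is that of 1 library, the genes were picked after their values had been seen, and fragments of near-identical copies cannot be told apart.

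Cdh3, the gene of P-cadherin, stepped down before birth, at 33.0, 25.3, 23.2 and 18.6 FPKM from E12.5 to E15.5 and 10.9, 9.12 and 8.60 FPKM from E16.5 to E18.5. The difference between these windows, -1.28 ± 0.36 log2 units, was not called by limma (adjusted p = 0.0136). The other 11 basal layer and hemidesmosome genes had positive differences, from as little as 0.06 (Itga3), and 4 were called. At W8 Cdh3 stood at 0.693 FPKM.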
